A study of Danio rerio with 6 samples.

Results

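The erythroid and globin genes examined here were the rows of the gene table named hbaa1, hbba1, hbba2, alas2, gata1a or slc4a1a, a set that marks red blood cells. Of these 6 names, 4 were found among the 33737 genes of the table, namely hbaa1, alas2, gata1a and slc4a1a, and all 4 passed the filter on low counts. No row carried the name hbba1 or hbba2. RefSeq lists ba1 as a synonym of hbba1 and zgc:92880 as a synonym of hbba2, and both rows are described below among the other adult-type globins. RNA came from the olfactory epithelium of adult zebrafish of the New wild type strain, an AB-derived line, with 3 libraries in the control group and 3 in the group imprinted with the rose-scented odorant phenylethyl alcohol (PEA). In early development the PEA group met the odorant every day for 3 weeks while the control group met distilled water, and tissue was taken at 6 months of age according to the labels, which give 10 fish per group and biological triplicates. The labels do not say whether each library pools 10 fish, so the p-values measure the spread between these libraries, whatever its source. The paper states a greater age for the adults of its study and a lower one for its photoconverted fish. It takes its RNA data from earlier work.

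Haemoglobin carries oxygen in red blood cells and is built from alpha and beta globin chains, each holding a haem group. Fish red cells keep their nucleus in the circulation, and zebrafish use embryonic globins first and adult globins later. In a tissue dissected with its vessels, such transcripts are commonly read as a measure of blood, and in bulk RNA fewer cells of a type cannot be told apart from less RNA per cell. The comparison between the groups therefore asks whether the blood content of the dissected organs differed between control and PEA libraries.

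The depth, as counts assigned to genes, was 45153814, 49085973 and 48299929 for control 1, 2 and 3 and 43590575, 45708421 and 46153505 for PEA 1, 2 and 3, and values of single libraries follow this order throughout. Levels are given as CPM, the counts of a gene per 1000000 counts of the library after scaling the library sizes with the TMM method, and 3 counts were worth 0.0586 to 0.0697 CPM. Of 14 olfactory sensory neuron markers listed, 9 were matched to a row, among them ompb and cnga4, and these were detected in every library and summed to 3028 to 3632 CPM over the 6 libraries. The 5 rows hbaa1, hbaa2, ba1, ba1l and zgc:92880 together took 0.0114% to 0.0169% of the counts of a library. This share leaves out si:xx-by187g17.1, a row next to hbba1 in the RefSeq order, which had 3933 to 6335 counts in a library.

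For the red blood cell genes, no difference between control and PEA libraries exceeded the spread within the groups. Each of the 4 was higher in the PEA group by at most 0.14 on the log2 scale, and for each gene the libraries of both groups overlapped, as they did for all but 5.51% of all genes tested. With edgeR's quasi-likelihood test, 0 of the 4 passed an adjusted p of 0.05, against 0 of all 20628 genes tested (0.0%). At an unadjusted p under 0.05 the count was also 0 of 4, against 1.66% of all genes tested (342 genes), and DESeq2 called 0 of the 4 and 5 genes in all (0.0184%).

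hbaa1 (ENSDARG00000097011) encodes an adult alpha globin chain. It had 3208, 5177 and 3331 counts in the control libraries and 3976, 3431 and 3686 counts in the PEA libraries, or 74.3, 101 and 66.9 CPM against 90.3, 79.7 and 78.0 CPM. Control 2 was the highest library and control 3 the lowest, so that the control libraries spanned the PEA libraries. The means were 80.8 ± 18.0 CPM in the control group and 82.7 ± 6.67 CPM in the PEA group (SD, n = 3). The log2 fold change of hbaa1 was 0.03 with an SE of 0.15 and a 95% interval of -0.32 to 0.38 (edgeR, adjusted p = 1.00), that is, a fold between 0.802 and 1.31. Its direction turned when control 1, control 3 or PEA 1 was left out.

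alas2 (ENSDARG00000038643) encodes the erythroid form of the enzyme that starts haem synthesis. Its counts were 526, 1007 and 629 in the control libraries and 743, 730 and 722 in the PEA libraries, or 12.2, 19.7 and 12.6 CPM against 16.9, 17.0 and 15.3 CPM. Control 2 again stood highest, both other control libraries lay below every PEA library, and the PEA libraries were close to each other. The control mean was 14.8 ± 4.20 CPM and the PEA mean 16.4 ± 0.945 CPM. The log2 fold change of alas2 was 0.14 (SE 0.18, 95% interval -0.28 to 0.56, edgeR adjusted p = 1.00). Without control 2 it was 0.40, still with an adjusted p of 1.00 in edgeR, and without control 1 it was 0.02.

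gata1a (ENSDARG00000013477) encodes the transcription factor that drives the erythroid program, and it was the member with the fewest counts. It had 138, 195 and 107 counts in the control libraries and 149, 163 and 119 counts in the PEA libraries, or 3.20, 3.81 and 2.15 CPM against 3.38, 3.79 and 2.52 CPM. The library numbered 3 was the lowest of each group. The group means were 3.05 ± 0.840 CPM and 3.23 ± 0.648 CPM, and the log2 fold change of gata1a was 0.08 (SE 0.26, 95% interval -0.50 to 0.66, edgeR adjusted p = 1.00). It turned to -0.12 without control 3 and to -0.05 without PEA 2.

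slc4a1a (ENSDARG00000012881) encodes band 3, the anion exchanger of the red cell membrane. It had 541, 876 and 582 counts in the control libraries and 527, 520 and 829 counts in the PEA libraries, or 12.5, 17.1 and 11.7 CPM against 12.0, 12.1 and 17.5 CPM. One library of each group, control 2 and PEA 3, stood above the others. The means were nearly equal, 13.8 ± 2.92 CPM in the control group and 13.9 ± 3.19 CPM in the PEA group. The log2 fold change of slc4a1a was 0.01 (SE 0.20, 95% interval -0.45 to 0.46, edgeR adjusted p = 1.00), and it was -0.20 without PEA 3.

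**Figure D1:**
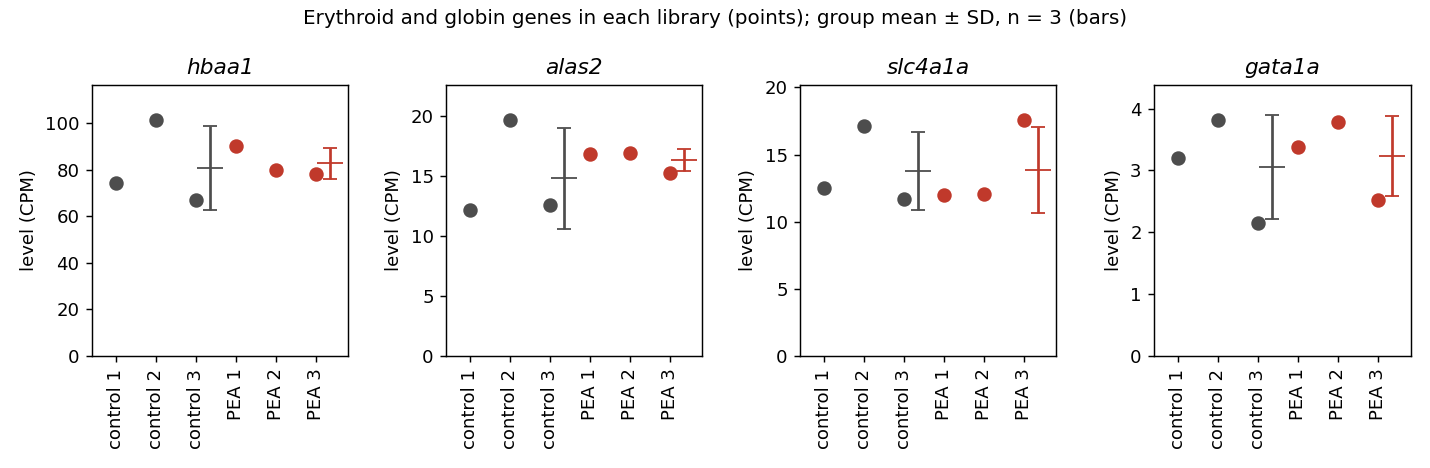
Level of hbaa1, alas2, slc4a1a and gata1a (vertical axes, CPM, starting at 0) in each of the 3 control libraries (grey) and 3 PEA libraries (red), with the group mean and SD (n = 3) as a bar. Control 2 is the highest library for hbaa1, alas2 and gata1a and PEA 3 for slc4a1a, and the groups overlap for every gene.

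For all 4 genes the libraries of a group differed more from each other than the group means did. Control 2 was the highest library for 3 of the 4 genes, while it was the highest for 13.0% of all genes tested, and control 3 was the lowest for 3 of the 4, against 15.5% of all genes tested. PEA 3 was the highest for slc4a1a alone, and for 17.6% of all genes tested. Control 2 led PEA 2 only slightly for gata1a, as PEA 3 led control 2 for slc4a1a. The highest level of a gene was 1.50 to 1.77 times its lowest. The coefficient of variation over the 6 libraries was 14.9% for hbaa1, 18.3% for alas2, 19.8% for slc4a1a and 21.6% for gata1a, beside a median of 13.1% over all genes tested.

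Among the 6 pairs of members, hbaa1 and alas2 had the highest Pearson correlation. Across the 6 libraries the log2 CPM of hbaa1 and alas2 had a Pearson's r of 0.89 (exact permutation p = 0.0222, two-sided) and a Spearman's rho of 0.89 (exact permutation p = 0.0333), but neither passed adjustment over the 6 pairs of members (adjusted p = 0.133 and 0.100). Without control 2 and control 3, the libraries farthest from the median of hbaa1, r was 0.74 over 4 libraries. For hbaa1 and gata1a r was 0.75 and rho 0.89 (exact permutation p = 0.0944 and 0.0333, adjusted p = 0.283 and 0.100), and r fell to 0.29 without the same libraries. For alas2 and gata1a r was 0.67 and rho 0.83 (exact permutation p = 0.144 and 0.0583, adjusted p = 0.289 and 0.117), and r was 0.81 without control 1 and control 3. slc4a1a followed the others least, with an r of 0.48 to hbaa1, 0.46 to alas2 and 0.06 to gata1a (exact permutation p = 0.360, 0.324 and 0.925, adjusted p = 0.432, 0.432 and 0.925), and a rho of 0.31, 0.20 and 0.26 (exact permutation p = 0.564, 0.714 and 0.658, each 0.714 after adjustment). Leaving out the 2 farthest libraries gave r values of -0.33, 0.09 and 0.52 for these pairs. With PEA 3 alone left out, r between hbaa1 and slc4a1a was 0.75, and with control 2 alone left out it was 0.06. These pairs share the same libraries and the 3 control libraries are too few for a value within a group.

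The other adult globins were higher in the PEA group on average, and none passed the test. Their log2 fold changes ranged from 0.11 to 0.35 over 4 rows, with a median of 0.19 beside -0.00 over all genes tested, and the groups overlapped for all 4. ba1 (ENSDARG00000089087), the beta globin row that RefSeq equates with hbba1, had 1095, 1504 and 1045 counts in the control libraries and 1330, 999 and 1797 counts in the PEA libraries, or 25.4, 29.4 and 21.0 CPM against 30.2, 23.2 and 38.0 CPM. Its log2 fold change was 0.27 (SE 0.19, edgeR adjusted p = 1.00), and 0.08 without PEA 3. ba1l (ENSDARG00000097238), a globin row next to hbaa1 in the RefSeq order, had 434, 587 and 360 counts in the control libraries against 483, 370 and 810 counts in the PEA libraries. PEA 3 was again the highest library, at 17.1 CPM against 7.23 to 11.5 CPM in the others, and the log2 fold change of ba1l was 0.35 (SE 0.26, edgeR adjusted p = 1.00), and 0.03 without PEA 3.

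zgc:92880 (ENSDARG00000069734), the beta globin row equated with hbba2, had another order of libraries than ba1. It had 421, 778 and 559 counts in the control libraries and 617, 599 and 534 counts in the PEA libraries, or 9.75, 15.2 and 11.2 CPM against 14.0, 13.9 and 11.3 CPM. Control 2 was its highest library, as for hbaa1, and its log2 fold change was 0.12 (SE 0.18, edgeR adjusted p = 1.00). hbaa2 (ENSDARG00000069735), a second adult alpha globin that the table names si:ch211-5k11.6, had 177, 246 and 199 counts in the control libraries and 244, 170 and 209 counts in the PEA libraries, and the log2 fold change of hbaa2 was 0.11 (SE 0.18, edgeR adjusted p = 1.00). Globin copies resemble each other, and how reads with several alignments were counted is not stated in the sources used here, so the division of reads among these rows is uncertain.

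**Figure D2:**
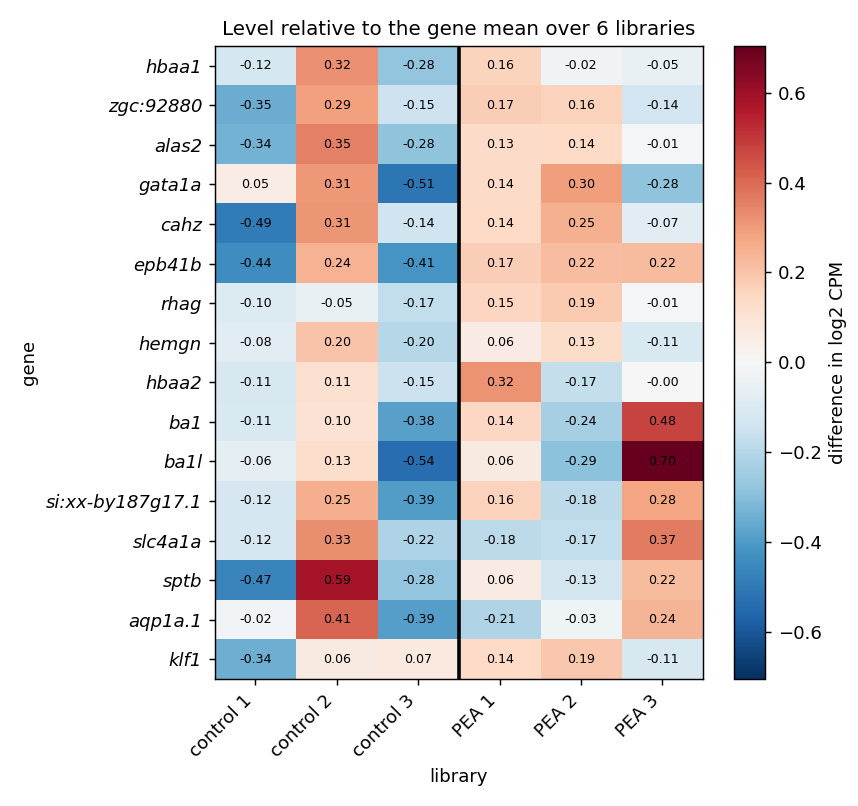
Level of red cell genes, and of si:xx-by187g17.1, in each library as the difference in log2 CPM from the gene's mean over the 6 libraries (colour and printed value). The line parts control and PEA libraries. hbaa1, zgc:92880, alas2, gata1a and cahz are at their highest in control 2, whereas ba1, ba1l, si:xx-by187g17.1 and slc4a1a are at their highest in PEA 3.

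Set against hbaa1 within each library, the rows were grouped into 2 sorts by the place of PEA 3 alone, after their values were seen. For ba1 there were 34.1, 29.1 and 31.4 counts per 100 counts of hbaa1 in the control libraries and 33.5, 29.1 and 48.8 in the PEA libraries. PEA 3 stood alone, with an exact 95% interval of 46.1 to 51.6, while the highest bound in the other libraries was 36.6. For ba1l the ratio was 22.0 (20.3 to 23.7) in PEA 3 and 10.8 to 13.5 in the other libraries. The row si:xx-by187g17.1 (ENSDARG00000079078), a coding gene next to hbba1 in the RefSeq order with no role annotated in the tables used, showed the same, with 161 (155 to 168) per 100 counts of hbaa1 in PEA 3 and 115 to 129 elsewhere. For slc4a1a, a gene of another locus, the ratio was 22.5 (20.8 to 24.3) in PEA 3 and 13.3 to 17.5 in the other libraries. PEA 1 was the lowest for slc4a1a, and its interval (12.1 to 14.5) lay below those of all control libraries, which began at 15.4. That of PEA 2 (13.8 to 16.6) overlapped the control intervals. Such intervals hold counting error alone, not the spread between libraries, and do not compare the groups.

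In the other sort PEA 3 lay inside the range of the remaining libraries. For zgc:92880 there were 14.5 counts per 100 counts of hbaa1 in PEA 3 (13.2 to 15.9) and 13.1 to 17.5 in the other libraries. For hbaa2 the ratio was 5.67 in PEA 3 and 4.75 to 6.14 elsewhere, and for alas2 it was 19.6 in PEA 3 and 16.4 to 21.3 elsewhere. gata1a had 3.23 per 100 counts of hbaa1 in PEA 3 and 3.21 to 4.75 in the other libraries. The intervals also parted libraries within this sort. For alas2 they were 14.9 to 18.0 in control 1 and 19.6 to 23.1 in PEA 2. For zgc:92880 they were 11.8 to 14.5 in control 1 and 16.0 to 19.0 in PEA 2. For gata1a they were 2.62 to 3.89 in control 3 and 4.03 to 5.56 in PEA 2, while those of hbaa2 all overlapped. The ratio to hbaa1 had an SD over the libraries, on the log2 scale, of 0.12 for alas2, 0.15 for hbaa2, 0.15 for zgc:92880, 0.22 for gata1a, 0.25 for slc4a1a, 0.28 for ba1 and 0.39 for ba1l, so that gata1a lay near slc4a1a. It was 0.21 for cahz and 1.64 for hbae3. Per 100 counts of ba1 there were 45.1 counts of ba1l in PEA 3 and 34.4 to 39.6 in the other libraries. The intervals cover counting error only, and reads are not independent molecules. In the RefSeq order of coding genes (assembly GRCz12tu) hbaa1 lies between ba1l and hbba1, with hbaa2 and hbba2 on the far side of ba1l.

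**Figure D3:**
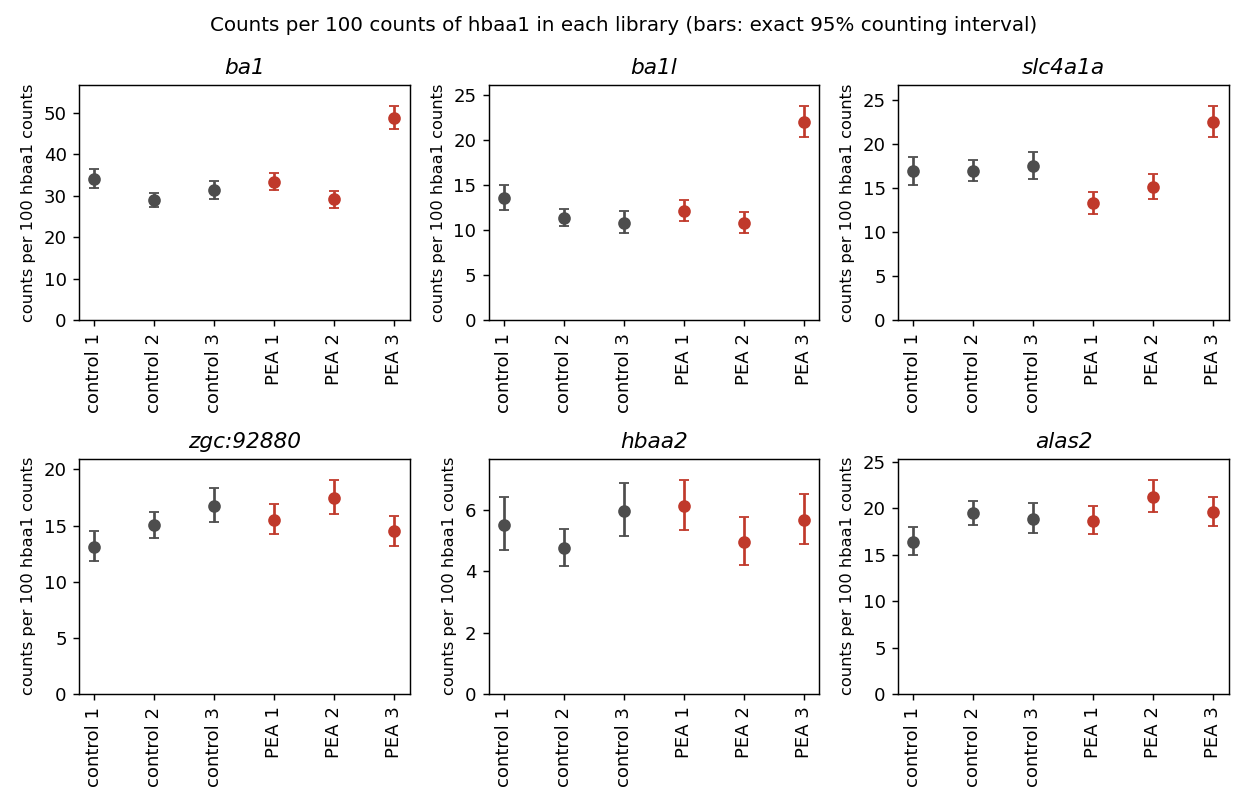
Counts of 6 genes per 100 counts of hbaa1 (vertical axes, starting at 0) in each control (grey) and PEA (red) library, with exact 95% intervals from counting. PEA 3 stands above the other libraries for ba1, ba1l and slc4a1a (48.8, 22.0 and 22.5) and among them for zgc:92880, hbaa2 and alas2.

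Embryonic and larval globins were mostly at 0. Of 11 rows, 7 had 0 counts in all 6 libraries, which allows up to 0.0697 CPM in a library for each, and hbbe2 and hbae5 had 0 to 3 counts. That bound holds only if reads of these rows could be assigned to them. How reads with several alignments were counted is not stated, so a count of 0 does not by itself show absence. hbae4, an embryonic alpha globin that the table names HBZ, had 110, 141 and 79 counts in the control libraries and 101, 107 and 99 counts in the PEA libraries, with control 2 highest and control 3 lowest as for hbaa1 (log2 fold change -0.00, SE 0.24, edgeR adjusted p = 1.00). hbae3, another embryonic alpha globin, was the most uneven of the globins that passed the filter on low counts, with 61, 33 and 15 counts in the control libraries and 116, 7 and 129 counts in the PEA libraries. Its highest level was 16.8 times its lowest, the groups overlapped, and its log2 fold change was 1.25 (SE 0.83, 95% interval -0.66 to 3.15, edgeR adjusted p = 1.00).

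Globins listed apart from those of haemoglobin were at low levels. Neuroglobin (ngb), a globin of neurons, had 11 to 15 counts, cytoglobin 2 (cygb2) had 0 to 9, and myoglobin (mb), which stores oxygen in muscle, had 50 to 269, highest in control 2. Globin X (xgb) had 26, 23 and 34 counts in the control libraries and 17, 8 and 21 counts in the PEA libraries. All PEA libraries of xgb lay below all control libraries, as for 2.94% of all genes tested. Its log2 fold change was -0.76 (SE 0.38, edgeR adjusted p = 1.00).

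No gene of the wider red cell program passed the test. Over the lists of globins, haem synthesis, iron handling, erythroid transcription factors, red cell membrane, red cell enzymes and haem clearance, with the members, 106 rows were in the table and 86 were tested. Of these 86 genes, 0 passed an adjusted p of 0.05 with edgeR and 0 with DESeq2, the median log2 fold change was 0.03, and 51 lay above 0 (59.3%, against 48.5% of all genes tested). At an unadjusted p under 0.05 there were 2 (2.33%, against 1.66% of all genes tested). The control and PEA libraries did not overlap for 5 (5.81%, against 5.51% of all genes tested), namely gfi1b, rhag and dmtn with PEA above control (2.56% of all genes tested) and xgb and ireb2 with PEA below control (2.94%). dmtn, which encodes the membrane skeleton protein dematin, is named here because of this count.

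Haem synthesis showed no common direction, with 5 of 9 tested genes above 0 and a median log2 fold change of 0.02. alas1, the form of the first enzyme used outside red cells, was at 251 ± 28.3 CPM in the control group and 226 ± 21.9 CPM in the PEA group (log2 fold change -0.15, SE 0.12). fech, which inserts iron into haem, had a log2 fold change of 0.12, urod, an enzyme of the middle of the pathway, 0.08, and clpxb, a subunit of a mitochondrial unfoldase, -0.05. Of 13 genes of iron uptake and mitochondrial iron, 6 lay above 0 (median -0.02). slc11a2, an iron importer, was at 13.0 ± 1.14 CPM against 10.2 ± 1.77 CPM (log2 fold change -0.35, SE 0.15, edgeR unadjusted p = 0.0471, adjusted p = 1.00). ireb2, an iron regulatory protein, was at 33.1 ± 0.801 CPM against 29.4 ± 1.73 CPM (log2 fold change -0.17, SE 0.09). abcb10 and slc25a38a, transporters of the inner mitochondrial membrane, had log2 fold changes of -0.12 and -0.28.

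Among 15 tested erythroid transcription factors and regulators 9 lay above 0, with a median of 0.07. gfi1b, known in mammals as a repressor needed in red cell and platelet precursors, was at 0.741, 0.489 and 0.522 CPM in the control libraries and 1.09, 0.813 and 0.910 CPM in the PEA libraries. All PEA libraries of gfi1b lay above all control libraries, and the test across all genes was not passed (log2 fold change 0.69, SE 0.28, edgeR unadjusted p = 0.0377, adjusted p = 1.00). klf3, a zinc finger factor used in many tissues, had a log2 fold change of 0.58 (SE 0.31), with 0.23 when PEA 1 was left out and 0.86 when control 1 was, myb, a factor of blood precursors and other dividing cells, 0.22, and nfe2 -0.14. The receptor of erythropoietin, epor, had 0 counts in every library, which allows up to 0.0697 CPM in a library.

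Red cell membrane and cytoskeleton genes lay above 0 for 11 of 13 (84.6%, against 48.5% of all genes tested), with a median of 0.08. Of these 13 genes, 8 were lowest in control 1 (61.5%, against 22.5% of all genes tested). epb41b, a protein 4.1 gene of the membrane skeleton, was at 4.03, 6.49 and 4.10 CPM in the control libraries and 6.18, 6.37 and 6.39 CPM in the PEA libraries (log2 fold change 0.37, SE 0.20, edgeR adjusted p = 1.00). add2, which encodes beta adducin, had a log2 fold change of 0.21 (SE 0.10), rhag, an ammonia channel of the red cell membrane, 0.22 (SE 0.13), slc2a1b, a glucose transporter, 0.19, and dmtn 0.08. The list of red cell enzymes, which also holds the non-enzyme gene hemgn, had a median of 0.00 over 15 genes. cahz, the carbonic anhydrase of zebrafish red cells, was at 13.4, 23.4 and 17.1 CPM in the control libraries and 20.8, 22.4 and 17.9 CPM in the PEA libraries, with the highest level in control 2 as for hbaa1 and alas2. Its log2 fold change was 0.18 (SE 0.19), with 0.02 when control 1 was left out and 0.42 when control 2 was, beside 0.08 for bpgm and 0.11 for txn, which encodes thioredoxin.

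Of 8 tested genes of haem and haemoglobin clearance, 3 lay above 0 (median -0.02). The haem oxygenases hmox1a and hmox2b had log2 fold changes of -0.07 and 0.23, the latter 0.00 without control 1 and 0.43 without PEA 1, flvcr1, a haem exporter, -0.15, and hpx, which encodes the plasma haem carrier haemopexin, 0.20. The lowest edgeR adjusted p among the genes of these lists was 1.00.

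**Figure D4:**
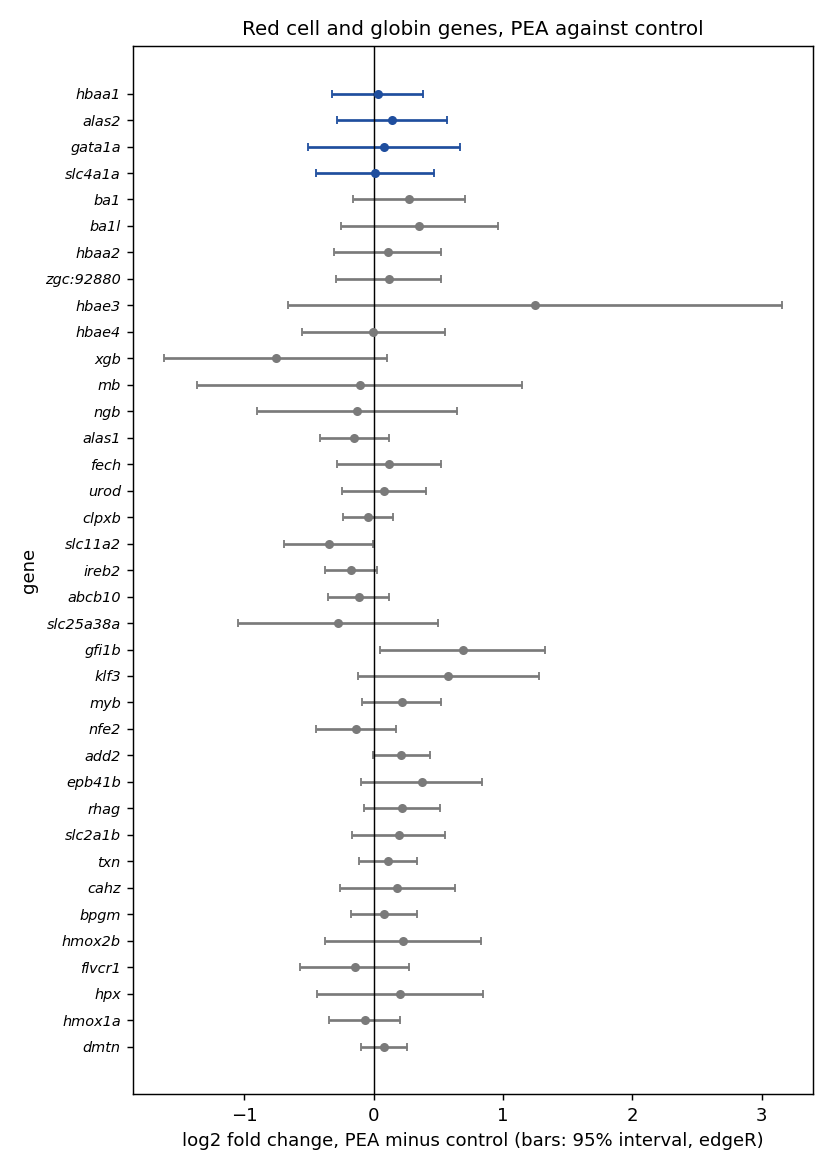
Log2 fold change of red cell and globin genes, PEA minus control (horizontal axis), from edgeR with 95% intervals as bars, the 4 members in blue and other genes in grey. Every interval includes 0 except those of gfi1b (0.69) and slc11a2 (-0.35), and neither gene passed adjustment over all genes tested.

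Cell types next to the blood were measured by lists of their markers. Blood vessel endothelium, with 12 of 15 listed markers matched and all of these detected, summed to 106 to 114 CPM in the control libraries and 119 to 130 CPM in the PEA libraries, without overlap. Gene by gene, 2 of the 12 did not overlap (16.7%, against 5.51% of all genes tested). Above 0 lay 10 of the 12 (83.3%, against 48.5%), and 8 were highest in PEA 1. Among these markers plvapb, a protein of endothelial fenestrae, was at 27.0, 22.7 and 26.0 CPM in the control libraries and 36.8, 35.3 and 34.3 CPM in the PEA libraries (log2 fold change 0.49, SE 0.10, edgeR adjusted p = 1.00), and without plvapb the sums were 79.4 to 89.3 CPM and 83.6 to 93.4 CPM. The 8 thrombocyte markers, all matched, summed to 29.5 to 59.9 CPM and 47.5 to 55.6 CPM. Of the 7 that were tested, 4 were highest in control 2 (57.1%, against 13.0% of all genes tested), as hbaa1 was. Lowest there were 3 (42.9%, against 10.7%). The thrombocyte sum was lowest in control 2, unlike hbaa1. Of the 7 log2 fold changes, 3 lay above 0 and 4 below, and the median was -0.00, with a range from -0.34 to 1.09. At an unadjusted p under 0.05 in edgeR there was 1, higher in PEA (14.3%, against 1.66% of all genes tested), and 0 passed adjustment. The log2 fold change of itga2b ran from 0.79 to 1.42 when single libraries were left out. Neutrophil markers summed to 194 to 253 CPM and 207 to 248 CPM and leukocyte markers to 5605 to 6451 CPM and 5897 to 6690 CPM, with 9 of 11 and 8 of 11 listed markers matched, and both sums were lowest in control 2. Mitochondrially encoded genes took 6.23% to 6.91% of counts in the control libraries and 7.25% to 9.68% in the PEA libraries, highest in PEA 2. Taken singly, 5 of these 13 genes did not overlap between the groups (38.5%, against 5.51% of all genes tested). Glucocorticoid target genes summed to 3939, 970 and 756 CPM in the control libraries and 3503, 2625 and 1349 CPM in the PEA libraries. For this sum and for hbaa1 alike, control 3 was lowest and the PEA libraries fell from PEA 1 to PEA 3. Control 1 was the highest library for the sum and control 2 for hbaa1, so the orders differed in the places of these libraries. With the libraries numbered 2 and 3 alone, an alternative chosen after the data were seen, the log2 fold changes were -0.08 for hbaa1 and 0.00 for alas2, and 0 of the 4 members passed the test. The part of these measures in the levels of the red cell genes was not tested.

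Genes whose pattern over the 6 libraries was most like that of hbaa1, with the globins left out, were sought by Pearson's correlation of log2 CPM among 1732 tested genes with a mean of at least 1 CPM and a log2 range of at least 1, of which 9 reached an r of 0.9. The condition on the range kept out most red cell genes, alas2, gata1a and hbaa1 itself included. The closest were cyp27a1.4 (r = 0.99), at 2.80, 5.92 and 2.13 CPM in the control libraries and 4.48, 3.67 and 3.09 CPM in the PEA libraries, and zgc:136930 (r = 0.98). CABZ01118678.1, fmoda, filip1l, KRT78 (2 of 2), ntm, pcolceb and htra3a followed (r = 0.91 to 0.93), and si:dkey-205h13.2 had an r of 0.89. Like hbaa1, 8 of these 10 genes were highest in control 2, a likeness largely set by how they were chosen. When the condition on the range was dropped, alas2 ranked 59 of 17349 genes in likeness to hbaa1, followed among the red cell genes by hemgn (named si:dkey-25o16.2 in the table, 83), stom (85), sptb (171) and zgc:92880 (204), with gata1a at 316 and slc4a1a at 1736. After gata1a came hbaa2 at 372, epb41b at 374, hbae4 at 399 and cahz at 481. Further red cell genes ranked lower, among them ba1 at 1725, rhag at 2218, ba1l at 2477 and fech at 10535. The myoglobin gene mb ranked 129. Here hemgn, stom and sptb were named for their ranks. With so few libraries and so many genes, these values are a description of the pattern only.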

How the data were processed

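RNA of adult olfactory epithelium was measured in 3 control and 3 PEA libraries. The authors deposited raw counts per gene, which they made by checking reads with FastQC 0.11.9, trimming with Trim Galore 0.6.4, aligning to Zv9 with Bowtie2 and counting with HTSeq 0.11.2, according to the paper and the submitters' processing notes. Bowtie2 does not splice reads, so reads across exon junctions can be lost, which bears on levels between genes. How strand and reads of more than 1 alignment were treated in counting is not given in the sources used here. Further columns of the table, with normalised values, group means and fold changes, were not used.

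Genes were grouped by name as the table gives it, or by the current symbol of the identifier (21939 identifiers matched). The members and 16 further lists were chosen with earlier results of these data known, and a few entries that matched a list by name alone were removed, and zgc:92880 added, once the gene names had been seen. Named genes were the members, every globin row found by a list and up to 4 genes of each list with the lowest p, and dmtn, si:xx-by187g17.1 and the genes most like hbaa1 came on top. A gene of the enzyme list is not reported here by name. RefSeq gave synonyms and gene order only (assembly GRCz12tu).

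Groups were compared with edgeR 4.0.16 in R 4.3.3 (TMM, filterByExpr, condition as the only factor, quasi-likelihood test, Benjamini-Hochberg over 20628 genes). The SE is the absolute log2 fold change divided by the square root of the F statistic. Log2 CPM used a prior count of 2. The script was tested on simulated data. Alternatives were DESeq2 1.42.0, its size factors in edgeR, globins left out of the library sizes, a minimum of 10 counts per library, no filter at all, the replicate block, leaving out 1 library at a time and, added later, libraries numbered 2 and 3 alone. Library depths are given with the results, and no 2 libraries of a group agreed within sampling noise (chi-square per gene 12.9 or more).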

Additional observations from a re-analysis of the deposited data

How the results depend on the processing

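None of the 4 members passed the test under any alternative run. The count over all genes tested was 0 to 1 when single libraries were left out (1 without control 3), 5 with DESeq2 and 1 in libraries 2 and 3 alone, where 1 gene of the lists, the glucocorticoid target fkbp5, was called. The mean level of hbaa1 was 81.7 CPM with TMM scaling and 81.9 CPM as a share of raw counts. The sample titles place a control and a PEA library under each Group number, but library numbers were not taken as pairs in the main test. Deviations of same-numbered libraries correlated at 0.17, -0.15 and 0.14, and those of differently numbered libraries at -0.30 to 0.24. With 3 libraries per group these values cannot settle whether the numbers pair the samples. With the replicate block, the count of calls stayed 0 and the log2 fold changes were 0.05 for hbaa1, 0.17 for alas2, 0.10 for gata1a and 0.01 for slc4a1a. Of 234 values from leaving out a library, 21 changed sign, and of 270 values from other settings 11 did. The cause was not tested.

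Leaving out each library in turn gave log2 fold changes of -0.086 to 0.23 for hbaa1, 0.02 to 0.40 for alas2, -0.12 to 0.27 for gata1a, -0.20 to 0.20 for slc4a1a, -0.035 to 0.21 for hbaa2, -0.0098 to 0.32 for zgc:92880, -0.21 to 0.15 for hbae4, -0.51 to 0.72 for mb, -0.29 to 0.025 for ngb, -0.015 to 0.15 for bpgm, -0.30 to 0.040 for flvcr1, -0.022 to 0.38 for hpx and -0.11 to 0.018 for hmox1a. Wide ranges without a change of sign included 0.85 to 1.96 for hbae3, 0.23 to 0.86 for klf3, -0.61 to -0.07 for slc25a38a and 0.03 to 0.55 for ba1l. In libraries 2 and 3 alone the sign changed to -0.084 for hbaa1, -0.065 for hbaa2, -0.061 for zgc:92880, 0.083 for hbae4, 0.055 for ngb, 0.018 for alas1 and -0.038 for slc2a1b. For hbae4 it was also positive with the size factors of DESeq2 in edgeR (0.0012), with DESeq2 (0.0013) and with the replicate block (0.029), where mb was at 0.12. Genes with few counts, such as gata1a and xgb, have wide intervals at this depth.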
